A study of Mus musculus with 6 samples.

Results

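The 9 genes Grem1, Nog, Chrd, Chrdl1, Bmper, Sostdc1, Fst, Fstl3 and Fstl1 encode secreted proteins that bind bone morphogenetic proteins (BMPs) or activins outside the cell, or that are named as relatives of such binders. They were found through the RefSeq accession carried by each probe of a mouse gene expression array, which gave 12 probes (3 for Chrdl1, 2 for Sostdc1 and 1 for each of the others) of 55681 probes in all, and 9 of 20676 genes with a symbol. A probe name was read as a gene where its accession was found in the RefSeq gene table. A further 27 probes, none of them of these 9 genes, took a symbol from a table deposited by the authors.

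BMPs and activins are ligands of the TGF-beta superfamily that assemble type I and type II receptor kinases at the cell surface, which then phosphorylate SMAD transcription factors. Secreted antagonists hold these ligands away from their receptors, and several of them are themselves induced by the pathway and so limit it. In the embryo they shape the dorsal axis, the limb, the somites and the heart, and in adult connective tissue they are made by fibroblasts and other stromal cells.

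RNA was measured in fibroblast cultures from the heart and from the skinned tail of male C57/Bl6-J mice, labelled as 8 weeks old, with 8 to 10 weeks in the protocol. Tissue pieces were digested with trypsin or collagenase, and the cells that attached were grown for 5 days in serum-containing medium, with no other treatment and no engineered allele named for either group. The labels give 3 heart and 3 tail arrays, each from a culture pooled from 2 animals, so n is a number of pooled cultures. The cells were unsorted outgrowths, and the series title asks about heart-forming genes in cardiac fibroblasts.

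Each array carried 1 colour, and the level given here is log2 of the processed signal minus the log2 75th percentile of that array, so that 0 is the level of a probe at the 75th percentile. Levels of different probes were not set against each other, since probes differ in brightness. A probe that the scanner software did not mark as well above background has no measured level, only an upper bound.

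Of the 6 arrays, 2 stood apart, and differences of the antagonists and of the pathway genes named with values are given with and without them, save where a gene could not be tested on 6 arrays. Heart 2 had a median signal of 949 against 24.3 to 37.8 on the other arrays, had 99.3% of its spots marked well above background against 47.3% to 55.2%, and correlated with the other arrays at 0.743 to 0.764, where all other pairs gave 0.957 to 0.989 (across probes). The 75th percentile of heart 2 was 2321, against 385 to 613 on the other arrays. Its median thus lay closer to its 75th percentile, and dim probes read higher there on this scale. Tail 1 had ordinary scanner values but ran against its label. The epicardial and cardiac fibroblast transcription factor Tcf21 had a level of 5.44 on tail 1, 5.37 and 5.28 on heart 1 and heart 3, and was not well above background on tail 2 and tail 3. The posterior Hox gene Hoxb13 was at 6.60 and 6.76 on tail 2 and tail 3, and not well above background on tail 1, heart 1 and heart 3. On heart 2, Tcf21 was at -2.38 and Hoxb13 at 4.44, so this array too lay toward the other group at these genes. Whether samples were exchanged was not tested. Leaving out tail 1 rests on the outcome itself, and this makes the p-values from the 4 remaining arrays (heart 1, heart 3, tail 2 and tail 3) smaller than they should be, to a degree that is not known. Both arrays keep their labels wherever they are used. All 15 listed fibroblast markers, Col1a1 and Pdgfra among them, were well above background on those 4 arrays. Their summed linear signal was 3446 to 4275 times the array's 75th percentile in heart and 3559 to 3867 in tail. The close sums hide differences of single markers. At an adjusted p under 0.05 (limma), 5 of the 15, Pdgfra among them, were higher in heart and 2 lower. Of all features, 7.75% were higher and 6.63% lower at that threshold.

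The promoters of the 3 antagonists that illustrate the range of the results are shown here: Grem1, which was lower in heart cultures on the 4 arrays, Bmper, which was higher, and Fstl1, whose levels lay close together. The 250 bases before the start of the gene are given from RefSeq on mouse build GRCm38.p6, on the strand of the gene, and 5 of the 9 genes had an entry. Capitals mark GGGCGG and GGCGCC on either strand.
Grem1 (chr2:113758649-113758898, minus strand): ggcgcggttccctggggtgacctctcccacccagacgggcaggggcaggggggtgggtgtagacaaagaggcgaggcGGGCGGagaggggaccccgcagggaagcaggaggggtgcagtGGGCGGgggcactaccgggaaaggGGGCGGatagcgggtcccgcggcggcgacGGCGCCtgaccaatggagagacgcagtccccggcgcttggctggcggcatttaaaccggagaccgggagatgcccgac
Bmper (chr9:23222826-23223075, plus strand): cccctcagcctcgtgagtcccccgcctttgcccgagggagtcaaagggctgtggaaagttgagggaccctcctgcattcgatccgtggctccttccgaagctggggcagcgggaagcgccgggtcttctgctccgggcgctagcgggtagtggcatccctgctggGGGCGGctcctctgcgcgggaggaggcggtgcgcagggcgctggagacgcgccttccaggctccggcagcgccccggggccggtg
Fstl1 (chr16:37776805-37777054, plus strand): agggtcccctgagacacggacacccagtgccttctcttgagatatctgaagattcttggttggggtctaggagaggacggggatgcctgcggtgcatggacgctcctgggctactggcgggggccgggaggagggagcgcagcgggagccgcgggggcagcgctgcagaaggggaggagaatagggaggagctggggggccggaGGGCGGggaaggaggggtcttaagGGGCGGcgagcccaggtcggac

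The 3 windows are rich in CpG, with 24 CpG dinucleotides for Grem1, 24 for Bmper and 16 for Fstl1, where the median over 32851 promoters of the same length was 6. The GC-box core GGGCGG, a letter sequence bound by Sp1-type factors, was found 3 times before Grem1 (first bases at -173, -131 and -107 from the start), once before Bmper (-85) and 2 times before Fstl1 (-46 and -22). It was present in 32.7% of all promoters. GGCGCC, which can be part of a BMP-responsive GC-rich SMAD element, was found before Grem1 (-78) and in 9.59% of all promoters. It was also found before Chrd (-203), which was not called and whose window is not shown. The short SMAD-binding core GTCT was found in all 3 windows and in 82.9% of all promoters. A palindrome is counted once, and none of the marked matches overlapped another. These are letter matches only, and no binding was measured.

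On the 4 arrays, 8 of the 9 antagonists could be tested and 3 passed an adjusted p of 0.05 (limma, two-sided, Benjamini-Hochberg over 20567 features), against 14.4% of all features. Grem1 and Chrdl1 were far lower in heart than in tail cultures, and Bmper was higher in heart. Of all features, 7.75% were called higher in heart and 6.63% lower. The median log2 difference (heart minus tail) of the 8 antagonists was -0.59, against -0.07 over all features. Levels of heart and tail arrays did not overlap for 6 of the 8, against 62.5% of all features. With all 6 arrays under their labels, 7 antagonists could be tested and none was called, against 0% of 20197 features (limma, smallest adjusted p 0.275). Levels of the 3 heart and 3 tail arrays overlapped for all 7 antagonists, so that 0 were apart, against 10.4% of all features. At an unadjusted p under 0.05 that comparison had 445 features and 0 antagonists. Without heart 2 alone, 0 of 20281 features were called.

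**Figure D1:**
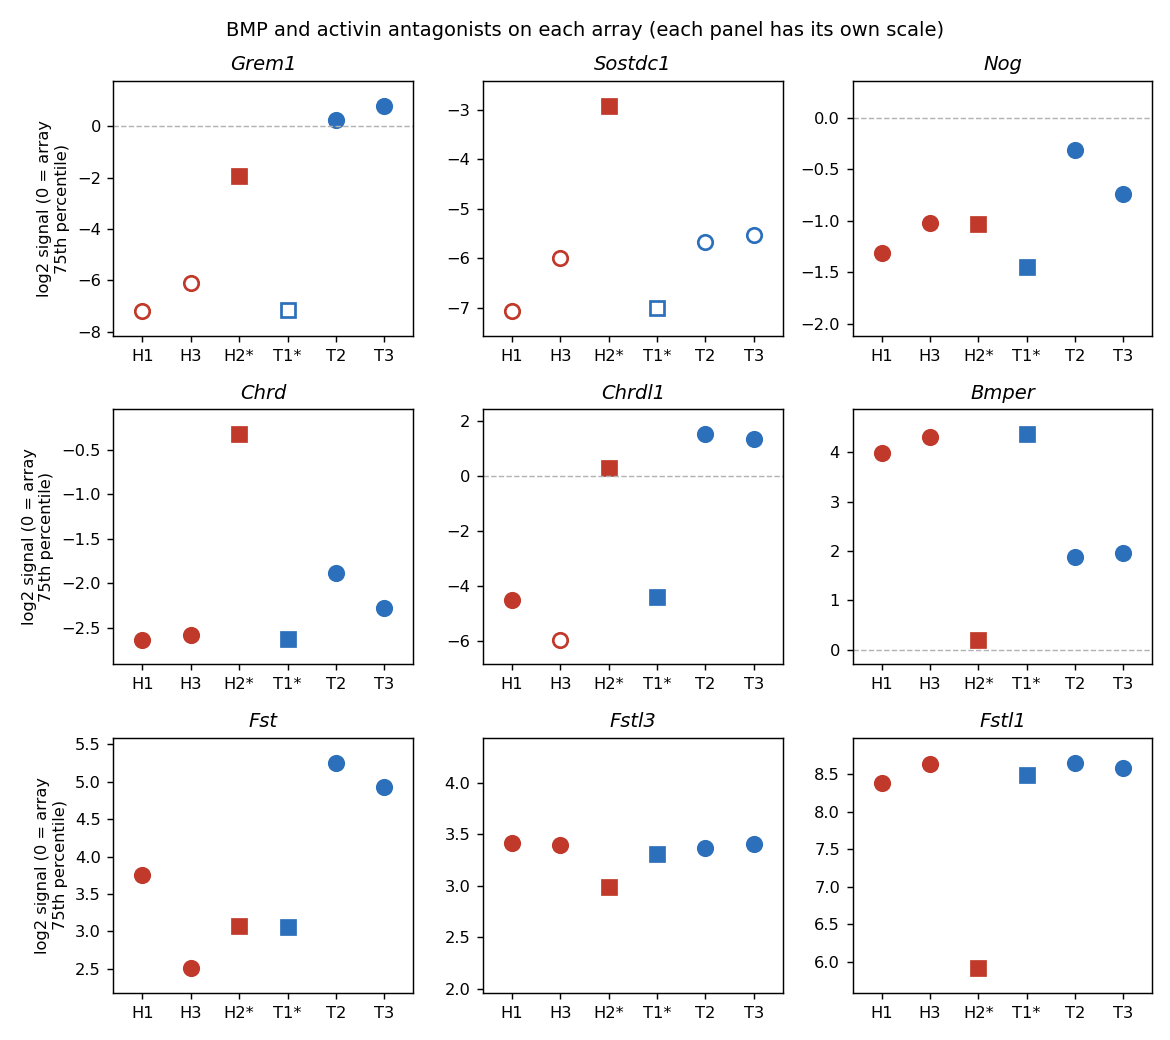
Level of each antagonist on each array (log2 signal, 0 at the array's 75th percentile), heart arrays (H) in red and tail arrays (T) in blue. Filled symbols are well above background, and squares mark heart 2 and tail 1. Tail 1 sits with heart 1 and heart 3 for Grem1, Chrdl1 and Bmper.

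Among the antagonists that bind BMPs, Grem1 was lower in heart than in tail cultures on the 4 arrays. It encodes gremlin 1, a cystine-knot protein that binds BMP2 and BMP4 and maintains outgrowth of the limb bud. Its level was 0.25 on tail 2 and 0.80 on tail 3, and the probe was not well above background on heart 1, heart 3 and tail 1, where it read -7.21, -6.10 and -7.14. On heart 2, where dim probes read higher, it read -1.93, between the groups. On the 4 arrays tail cultures had at least 32.3-fold more Grem1 signal than heart cultures (adjusted p = 0.00186, limma, n = 2 per group). The measured difference was -7.18 (SE 0.43, 95% interval -8.33 to -6.02), but its heart side is a background reading. Since Grem1 entered the test only through the tail arrays, a difference in that direction was built into its selection, as it was for Chrdl1. In the comparison of all 6 arrays it was not tested, as no group was above background throughout.

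Chrdl1, chordin-like 1, carries chordin-type cysteine-rich repeats that bind BMPs. On its brightest probe the level was 1.52 on tail 2 and 1.36 on tail 3. It was -4.51 on heart 1 and -5.95 on heart 3, of which heart 1 alone was well above background. Tail 1 read -4.41, beside the low arrays, and heart 2 read 0.29, nearer the high ones. On the 4 arrays the difference was -6.67 (SE 0.50, 95% interval -8.00 to -5.34, adjusted p = 0.0031, limma, n = 2 per group). The reading of heart 3 is a background value, and the dimmest signal that this array marked as well above background was -3.95. The size of this difference is thus not fully measured. With 6 arrays it was -2.88 (SE 1.96, adjusted p = 0.714), and the groups overlapped.

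The other Chrdl1 probes, of another RefSeq transcript, pointed the same way. Probe A_55_P1955627 read -1.56 and -1.58 on tail 2 and tail 3, and probe A_55_P2123683 read -2.38 and -2.42. Neither was well above background on heart 1, heart 3 or tail 1. The 4-array differences were -5.04 and -4.15, with background readings on the heart side.

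**Figure D2:**
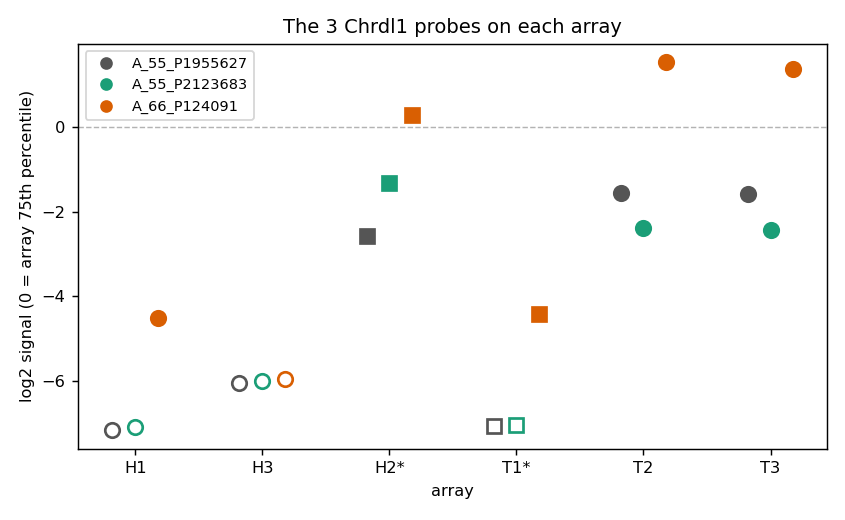
Level of the 3 Chrdl1 probes on each array (log2 signal, 0 at the array's 75th percentile). Filled symbols are well above background, and squares mark heart 2 and tail 1. All 3 probes are higher on tail 2 and tail 3 than on heart 1, heart 3 and tail 1.

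Bmper ran the other way. It encodes BMP-binding endothelial regulator, a secreted relative of fly Crossveinless-2 that binds BMPs and can restrain or help their signalling depending on dose. Its level was 3.99 on heart 1 and 4.32 on heart 3, against 1.87 on tail 2 and 1.95 on tail 3. Tail 1 read 4.37, above both of those heart arrays, and heart 2 read 0.20, below every tail array. The probe was well above background on all 6 arrays. On the 4 arrays Bmper was 4.72-fold higher in heart (log2 difference 2.24, SE 0.18, 95% interval 1.76 to 2.72, adjusted p = 0.0036, limma, n = 2 per group). With 6 arrays the difference was 0.10 (SE 1.16, adjusted p = 0.968), its direction changed in several of the alternatives, and the groups overlapped.

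Nog and Chrd encode noggin and chordin, the antagonists by which the organizer of the early embryo blocks BMP signals. Nog had a level of -1.31 and -1.03 on heart 1 and heart 3 and of -0.31 and -0.74 on tail 2 and tail 3, with -1.03 on heart 2 and -1.45 on tail 1. Tail 1 was the lowest of the 6 arrays. The 4-array difference was -0.65 (SE 0.22, 95% interval -1.24 to -0.06, adjusted p = 0.145, limma), and with 6 arrays it was -0.29 (SE 0.45, adjusted p = 0.754).

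Chrd read -2.63 and -2.59 on heart 1 and heart 3, -1.89 and -2.27 on tail 2 and tail 3, -2.62 on tail 1 and -0.33 on heart 2. Heart 2, where dim probes read higher, was the highest array by a wide margin, and tail 1 lay beside heart 1 and heart 3. The 4-array difference was -0.53 (SE 0.19, 95% interval -1.03 to -0.02, adjusted p = 0.160, limma). With 6 arrays it was 0.41 (SE 0.67, adjusted p = 0.765), and it turned to -0.35 without heart 2. Nog and Chrd thus passed no threshold over all features, although their heart and tail arrays did not overlap on the 4 arrays.

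Sostdc1, also called ectodin or USAG-1, binds BMPs and also acts on Wnt signalling, and is best known from tooth and kidney. Neither of its probes was well above background on heart 1, heart 3, tail 1, tail 2 or tail 3, where the readings ran from -7.19 to -5.53. On heart 2 one probe read -2.92 and was marked well above background, as were 99.3% of the spots of that array. The spot of the other probe was left out as an outlier. Sostdc1 was not tested on 4 or 6 arrays.

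Among the antagonists of activins, Fst encodes follistatin, which wraps around activins and also binds myostatin and some BMPs. Its level was 3.75 on heart 1 and 2.51 on heart 3, against 5.26 on tail 2 and 4.93 on tail 3. Heart 2 and tail 1 both read 3.07, inside the range of the other heart arrays. The 4-array difference was -1.97, 3.90-fold lower in heart (SE 0.45, 95% interval -3.16 to -0.77), with an adjusted p of 0.0581 (limma) that missed the threshold. The heart arrays differed from each other more than the tail arrays did. Under 6 of 12 alternatives Fst passed the threshold, with adjusted p from 0.00579 to 0.247 over all of them, and without heart 1 the difference was -2.59 (adjusted p = 0.0145). With 6 arrays it was -1.31 (SE 0.66, adjusted p = 0.714), and the groups overlapped.

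Fstl3 encodes follistatin-like 3, a close relative that binds activins and myostatin and lacks the heparin-binding stretch of follistatin. It read 3.41 and 3.39 on heart 1 and heart 3, 3.36 and 3.40 on tail 2 and tail 3, 3.31 on tail 1 and 2.98 on heart 2. The groups overlapped, and heart 2 was the lowest array. The 4-array difference was 0.02 (SE 0.14, 95% interval -0.36 to 0.39, adjusted p = 0.944, limma), and its sign changed between alternatives. With 6 arrays it was -0.10 (SE 0.39, adjusted p = 0.903).

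Fstl1, follistatin-like 1, is a glycoprotein of mesenchymal cells and has been studied as a factor released in the heart. It shares a follistatin-type domain but is more distant, and it is not a classical activin trap. Its level was 8.37 and 8.64 on heart 1 and heart 3, 8.65 and 8.57 on tail 2 and tail 3, 8.48 on tail 1 and 5.91 on heart 2. The 5 arrays other than heart 2 lay close together, and the groups overlapped. The 4-array difference was -0.11 (SE 0.17, 95% interval -0.55 to 0.34, adjusted p = 0.707, limma). It was 0.17 after quantile normalization. With 6 arrays it was -0.93 (SE 0.72, adjusted p = 0.714). The intervals of Fstl3 and Fstl1 on the 4 arrays leave room for a small change in either direction.

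**Figure D3:**
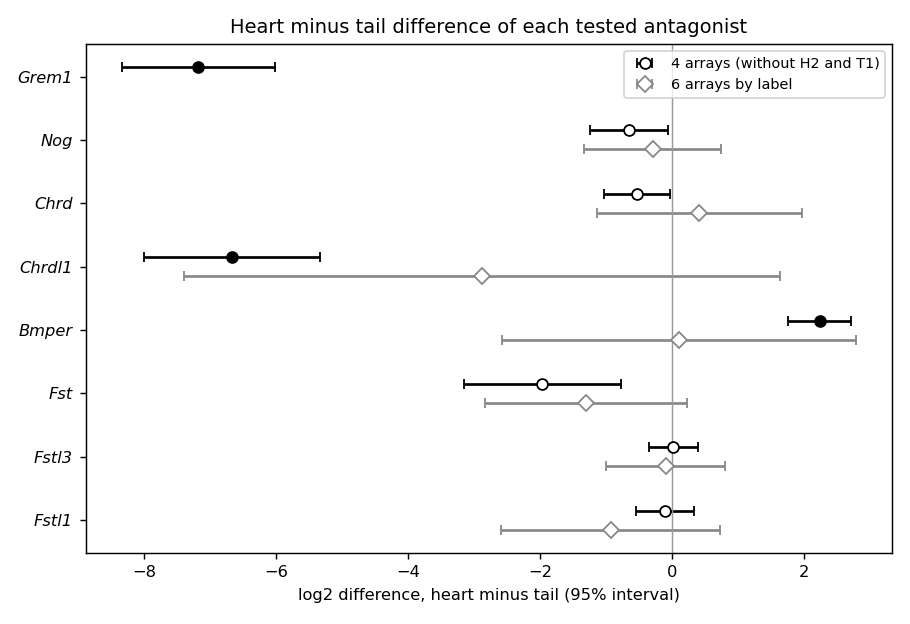
Heart minus tail log2 difference of the tested antagonists with 95% intervals, on 4 arrays (circles, filled where the adjusted p is under 0.05) and on all 6 arrays by label (grey diamonds). Grem1, Chrdl1 and Bmper are called on 4 arrays and no antagonist on 6. The heart side of Grem1 is a background reading.

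For the 3 called antagonists, tail 1 lay nearer the mean of heart 1 and heart 3 in 3 of 3, as it did for 2919 of all 2957 called features. Heart 2 lay nearer the mean of tail 2 and tail 3 in 3 of 3, and for 1620 of 2851 called features measured on it. Since 4 arrays lay in the first row of the slide and 2 in the second, the differences were also taken within each row. On the 4 arrays they were -7.46 and -6.90 for Grem1, -6.03 and -7.31 for Chrdl1, 2.12 and 2.36 for Bmper and -1.51 and -2.42 for Fst, each from 1 heart and 1 tail array. All 4 genes thus kept their direction in both rows. With all 6 arrays under their labels, Chrdl1 gave -0.67 in row 1 and -7.31 in row 2, Fst gave -0.75 and -2.42, and Bmper gave -1.03 and 2.36.

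A table of heart over tail fold changes deposited by the authors lists 433 probes, 261 higher in heart and 172 lower, with a smallest absolute fold of 2.0. None of the 12 probes of the antagonists is among them. The sources used here do not say how that table was filtered.

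The genes whose pattern over the 5 arrays other than heart 2 was most like that of each antagonist were taken by the smallest root-mean-square distance between centred log2 profiles. For Grem1 they were Actc1 (distance 0.20), Hoxc9 (0.21) and Hoxa11 (0.28). For Chrdl1 they were Hoxa11os (0.38), Plekhg4 (0.41) and Dlx2 (0.41). For Bmper they were Gyg (0.052), Cmpk2 (0.055) and Dclk2 (0.060), and for Fst Cap2 (0.092), Osr1 (0.15) and 2900026A02Rik (0.17). These distances grow with a gene's own range, and for Grem1 the profile holds 3 background readings among 5. Nog lay nearest Brdt, Crhr2 and Gm10334, Chrd nearest Zfp697, Abcc8 and Nat9, Fstl1 nearest Inhbb, Zfp345 and Glrx2, and Fstl3 nearest Stat6, Psmb1 and Pgd. Nothing about function follows from these distances.

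Other secreted antagonists and modulators of BMPs were read from a list of 18 genes, of which 11 could be tested on the 4 arrays. There, 2 were called higher in heart and 1 lower, against 7.75% and 6.63% of all features, with a median difference of 0.37, and without heart 1 the list had 5 calls. Nbl1 (DAN), the founding member of the family that includes gremlin, was lower in heart by a difference of -2.27 (SE 0.14, adjusted p = 0.0021, limma), and by -1.58 (adjusted p = 0.714) with 6 arrays. Chrdl2, the paralog of Chrdl1, went against it: it was at least 1.53-fold higher in heart (adjusted p = 0.0096), not well above background on tail 2 and tail 3, and no longer called without heart 3 (adjusted p = 0.0583) or after normexp background correction (difference 0.42, adjusted p = 0.128). With 6 arrays its difference was 2.12 (adjusted p = 0.714). Chrdl2 entered the 4-array test only through the heart arrays, so its direction was built into its selection. Htra1, a secreted protease that can bind BMPs, was higher in heart by 1.61 (SE 0.24, adjusted p = 0.0188), and missed the threshold without tail 2 (adjusted p = 0.0825) or tail 3 (0.0929). With 6 arrays its direction turned, to -0.36 (SE 1.16, adjusted p = 0.874).

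The ligands that these proteins bind were read from a list of 22 genes. Of 16 tested on 4 arrays, 3 were called higher in heart and 4 lower, against 7.75% and 6.63% of all features. The median was -0.20. Without tail 3 the list had 4 calls. Gdf6, a BMP-type ligand of joints and skull sutures, read 4.62 and 3.76 on heart 1 and heart 3, -3.90 on tail 2 and -4.52 on tail 3, where tail 3 was not well above background. Its difference of 8.40 (SE 0.38, adjusted p = 0.0012, limma) thus rests in part on a background reading, and with 6 arrays it was 3.87 (adjusted p = 0.714). Bmp3, itself an antagonist-like BMP, was at least 6.94-fold higher in heart (adjusted p = 0.0067), with a difference of 2.68 (adjusted p = 0.714) with 6 arrays. Bmp5 went the other way, with a tail signal at least 7.11-fold that of heart (adjusted p = 0.0034), and was not tested with 6 arrays. Gdf6 and Bmp3 entered the 4-array test only through the heart arrays and Bmp5 only through the tail arrays, so these directions were built into their selection. The other calls, named after their values were seen, were Bmp6 (higher in heart) and Bmp4, Gdf10 and the activin A subunit gene Inhba (lower in heart).

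**Figure D4:**
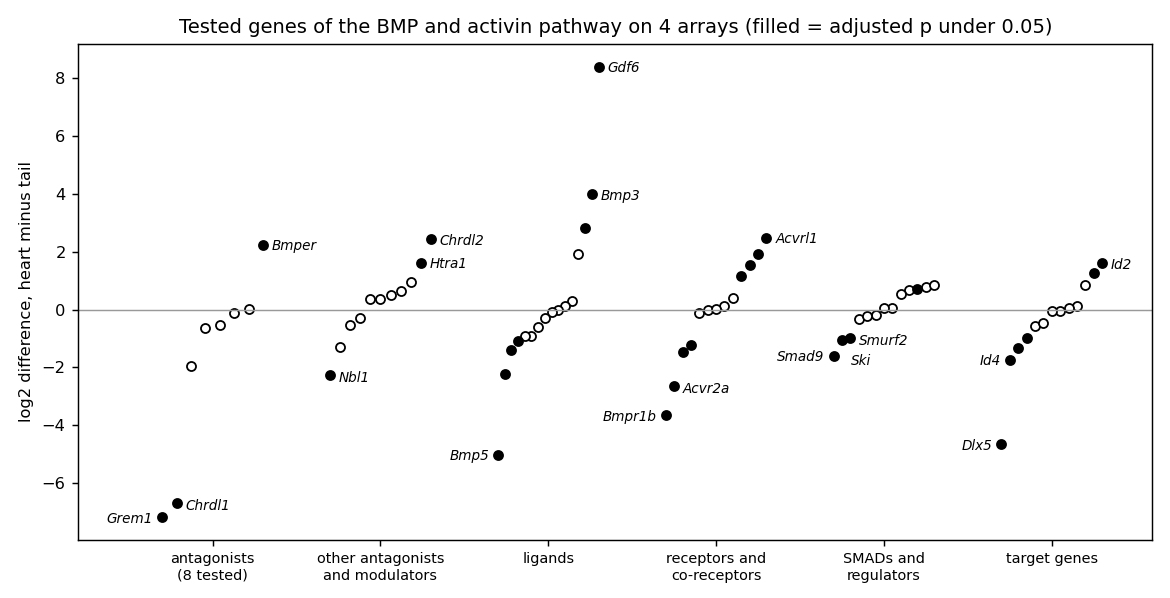
Heart minus tail log2 difference on the 4 arrays for the tested genes of the antagonists and of 5 lists of BMP and activin pathway genes, 1 point per gene. Filled points have an adjusted p under 0.05. Grem1 and Chrdl1 are the lowest points and Gdf6 the highest.

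Of 16 receptor and co-receptor genes on the array, 13 were tested, with a median of 0.01. Calls were 4 higher and 4 lower in heart, against 7.75% and 6.63% of all features. Without tail 2 the list had 3 calls and without tail 3 it had 4. The type I receptor Bmpr1b had a tail signal at least 6.88-fold that of heart (adjusted p = 0.0049, limma). It entered the test only through the tail arrays, which built that direction in, and was not tested with 6 arrays. Acvr2a, a type II receptor for activins and BMPs, was lower in heart by a difference of -2.64 (SE 0.18, adjusted p = 0.0024), and of -1.62 (adjusted p = 0.714) with 6 arrays. Acvrl1 (ALK1), the type I receptor of endothelium for BMP9 and BMP10, was higher in heart by 2.48 (SE 0.17, adjusted p = 0.0025), and by 0.18 (adjusted p = 0.945) with 6 arrays. Those named after their values were seen were Eng, Acvr1b and Rgmb, higher in heart, and Acvr2b and Tgfbr3, lower in heart. Acvr1b entered the test only through the heart arrays, so its direction was built into its selection.

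Inside the cell, the 13 SMAD and SMAD-regulator genes had a median of 0.04. They had 1 call higher in heart and 3 lower, against 7.75% and 6.63% of all features. Smad9, which encodes a BMP-type SMAD, differed by -1.59 (SE 0.17, adjusted p = 0.0081, limma), Ski, a SMAD co-repressor, by -1.04 (adjusted p = 0.0254) and Smurf2, a ubiquitin ligase for SMADs and receptors, by -0.98 (adjusted p = 0.0289). With 6 arrays the differences were -1.04, -0.99 and -0.89, each with an adjusted p of 0.714. The 4-array calls depended on single arrays. Without tail 3 none of the list was called (Smad9 then had an adjusted p of 0.0675, Ski 0.199 and Smurf2 0.240), and without tail 2 there was 1. Ski without tail 2 had an adjusted p of 0.176 and Smurf2 0.184, and Smurf2 also missed it without heart 3 (0.0549). Smad3, the remaining call, was higher in heart and is named after its values were seen.

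Genes that BMPs commonly induce were read from a list of 15, with 13 tested. Calls were 2 higher in heart and 4 lower, against 7.75% and 6.63% of all features. The median of -0.07 equals the median of all features at this precision. The Id genes, classic immediate targets of BMP SMADs, did not move together. Id2 was higher in heart by 1.60 (SE 0.17, adjusted p = 0.0071, limma) and Id3 by 1.28 (SE 0.14, adjusted p = 0.0082). Id4 was lower in heart, at -1.73 (SE 0.23, adjusted p = 0.0139), and Id1 was at 0.13 (SE 0.30, 95% interval -0.66 to 0.93, adjusted p = 0.799). With 6 arrays Id2 was at 0.05 (adjusted p = 0.981), Id3 turned to -0.21 (adjusted p = 0.906), Id4 was at -0.96 (adjusted p = 0.714) and Id1 turned to -0.29 (adjusted p = 0.800). Dlx5, a BMP-induced homeobox gene of bone and limb, had a tail signal at least 15.3-fold that of heart (adjusted p = 0.0014). It entered the test only through the tail arrays, which built that direction in, and was not tested with 6 arrays. Msx2 and Runx2, named after their values were seen, were also lower in heart. Runx2 too entered the test only through the tail arrays, so its direction was built into its selection. Without tail 2 the list had 1 call, with Id2 at an adjusted p of 0.0631, Id3 at 0.0889 and Id4 at 0.0641, and without tail 3 it had 2, with Id3 at 0.0986 and Id4 at 0.0708. With all 6 arrays under their labels, none of the genes in the 5 lists was called (limma).

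The deposited table of the authors holds some of these neighbours. It gives a log2 fold change (heart over tail) of 7.51 for Gdf6, -4.30 for Dlx5, -2.04 for Nbl1, 1.53 for Id2, 1.33 for Id3 and -1.63 for Id4. Each has the sign of the 4-array difference. The authors' values come from this same series, so their signs are no separate evidence. With all 6 arrays under their labels Id3 had the other sign, at -0.21.

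Markers of other cell types differed between the groups as well. The counts of calls stand against 7.75% of all features called higher in heart and 6.63% lower on the 4 arrays. The 7 tendon markers had a summed linear signal of 11.2 to 31.0 times the array's 75th percentile on heart 1 and heart 3 and of 471 to 515 on tail 2 and tail 3, with 3 to 4 and 7 of 7 well above background, and 6 were called lower in heart and 0 higher on the 4 arrays. The tendon protein gene Tnmd read 3.05 and 2.88 on tail 2 and tail 3 and was not well above background on heart 1, heart 3 and tail 1. Of the 9 cartilage and bone markers, 5 were well above background in heart and 7 to 8 in tail, with sums of up to 17.6 in heart and of 122.5 to 137.1 in tail, and 5 were called lower in heart and 1 higher. The sums of the 8 smooth muscle and pericyte markers were 586 to 635 in heart and 1252 to 1528 in tail, with 6 to 7 and 7 to 8 above background, and 5 were called lower in heart and 0 higher. All 10 endothelial markers were well above background in heart and 6 in tail. Of these, 8 were called higher in heart and 0 lower on the 4 arrays, with a median difference of 2.63, although their sums were close (18.6 to 25.4 in heart and 19.6 to 26.2 in tail). Of 11 leukocyte markers, 9 were on the array, and 9 were well above background in heart and 8 to 9 in tail. Of these, 5 were called higher in heart and 0 lower, with a median difference of 2.14 and sums of 63.7 to 122.1 and 58.0 to 77.7. Bmper, Acvrl1 and Eng were higher in heart on the same arrays. The skeletal muscle sums were 13.5 to 17.5 in heart and 41.2 to 46.9 in tail, with 0 called higher in heart and 3 lower. Adipocyte markers had 0 called higher and 3 lower, and keratinocyte markers 0 and 1. Mesothelium and epicardium markers had 2 higher and 1 lower, with sums of 0.99 to 1.15 in heart and 2.94 to 3.07 in tail. Of these 8 markers, 4 to 7 were well above background in heart and 1 to 2 in tail. On tail 2 the tendon sum came mostly from Thbs4 (level 8.86) and the skeletal muscle sum from Acta1 (5.52). The endothelial sum there came mostly from Kdr (4.63) and the mesothelium sum from Krt19 (1.47). Such sums thus say little about the other markers of a list. Cardiomyocyte markers had 1 higher and 2 lower, and Schwann and neural markers 1 and 1. Called genes such as Tnmd, Mkx, Kera, Thbs4, Col10a1, Ibsp, Myh11, Myog, Myh3, Plin1, Cfd and Retn entered the test only through the tail arrays. Tie1, Cldn5, Robo4, Emcn, Ptprc, Msln and Wt1 entered only through the heart arrays. These directions were built into their selection, so the counts of calls in these lists partly follow the filter. The sums on tail 1 were 13.1 for tendon and 18.2 for cartilage and bone, within or close to the heart range. The part of these cells in the levels of Grem1, Chrdl1, Fst and Bmper was not tested, and in such mixed cultures fewer cells of a type and less RNA per cell cannot be told apart.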

How the data were processed

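RNA of 6 cultures was labelled with Cy3 and measured on 1 array each. Per the file headers, the deposited spot intensities came from Agilent Feature Extraction 11.0.1.1, which subtracted background but left the arrays unscaled against each other. The flags used were deposited as values of another kind, 0 or 1 per spot. The deposited log2 fold changes of the authors come with no stated method.

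Outlier spots were dropped, spots of a probe averaged, and log2 signals reduced by each array's 75th percentile over 55681 probes. A probe stayed in a comparison if every array of heart, or every array of tail, was marked well above background, and the brightest such probe stood for a gene. RefSeq accessions named 27235 probes, the deposited table named 27 more, and 28419 had no symbol. limma 3.58.1 (lmFit, eBayes) in R 4.3.3 compared heart with tail, adjusting over all features. The scripts were tested on simulated data. Python 3.11.15, pandas 2.3.3 and matplotlib 3.10.9 were used.

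An "at least" fold sets the brighter group's mean against a floor averaged over the dim arrays: the dimmest signal that an array marks as well above background, or the probe's reading where that is higher. The number of arrays limits the precision, and p-values measure the spread between pooled cultures. The comparison without heart 2 and tail 1, the genes and the lists were chosen with earlier results of these data known. A listed gene is not reported here and is left out of its list's counts. Genes named were the 9 antagonists, up to 3 called genes of each list with the largest differences, Id1, Id2 and Id3, and the 3 nearest profiles of each antagonist. Normexp correction (offset 50), planned on mean or median spot signals, used deposited median spot and background intensities. Other alternatives were quantile and median scaling, filters, probe choice, slide row, intensity trend, array weights, the replicate number as a block and leaving out each array.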

Additional observations from a re-analysis of the deposited data

How the results depend on the processing

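On the 4 arrays, the lower level of Grem1 and Chrdl1 and the higher level of Bmper in heart kept their direction and an adjusted p under 0.05 in limma under every alternative in which they were tested, with the largest adjusted p at 0.0285, 0.0364 and 0.0488. For Grem1 and Chrdl1, which entered through the tail arrays, the filter fixed the direction wherever it was used. There, the kept direction is no sign of stability. With no filter on dim probes, 2 of 9 antagonists were called lower in heart and 1 higher. With a filter of well above background on every array, Grem1 and Chrdl1 were not tested and 1 antagonist was called. Leaving out 1 array gave 3 to 4 called antagonists and 1569 to 3951 called features (1902 without tail 2, 1569 without tail 3, 3951 without heart 1), and no filter on dim probes gave 716 of 37066. Where an array was left out, the lone array of a group was taken to vary like the other group. Small differences changed sign: Fstl1 was 0.17 after quantile normalization and -0.24 to 0.023 with an array left out (0.023 without heart 1), Fstl3 -0.0055 and -0.0015 to 0.038 (-0.0015 without tail 2), and Id1 -0.26 to 0.53 with an array left out (-0.26 without heart 1).

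With all 6 arrays, array weights gave 4158 called features and 3 called antagonists, Chrdl1 (-6.21), Fst (-1.60) and Bmper (2.08). These weights came from the same data and were 0.0209 for heart 2 and 0.405 for tail 1. They were 2.01 for heart 1, 0.957 for heart 3, 3.57 for tail 2 and 17.1 for tail 3. The tail side of the weighted fit thus rested mostly on tail 3. Leaving out 1 array gave 0 to 214 called features (214 without heart 1) and 0 called antagonists. Chrd turned to -0.52 (median scaling) and -0.39 (array weights) and ran from -0.35 (without heart 2) to 0.81 with an array left out. Fstl3 turned to 0.47 (quantile) and 0.0075 (array weights) and ran from -0.17 to 0.043 (without heart 2). Bmper turned to -0.83 (median scaling), -1.03 (within slide row 1), -0.47 (without heart 1), -0.64 (without heart 3), -0.33 (without tail 2) and -0.29 (without tail 3), and was at most 1.42 with an array left out. Median scaling moved the median difference of all features by -0.93 and quantile normalization by 0.11. The cause of these changes was not tested.

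Samples with the same replicate number deviated with correlations of 0.19, 0.26 and -0.33. The arrays that stood apart entered these deviations, so the correlations cannot show whether the numbers pair the cultures. A replicate block called 44 features and 0 antagonists. The 4 arrays share only number 3 between the groups, so they had no blocked fit.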
